A study of Mus musculus with 83 samples.

Results

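The genes described here are 9 genes of bone morphogenetic protein (BMP) signalling in the colon of aging mice: the ligands Bmp2, Bmp3, Bmp4, Bmp5 and Bmp7, the secreted antagonists Grem1, Chrd and Nog, and the target gene Id1. They were chosen by name, with earlier results of these data known, and were found by symbol through the Ensembl identifiers among the 37764 genes of the count table. RNA was sequenced from the colon, by the methods of the study its proximal section, of 83 male C57BL/6J/Ukj mice, with 1 library for each mouse. The mice were grouped by age, and the labels name no treatment. There were 16 mice at 3 mo, 16 at 9 mo, 16 at 15 mo, 17 at 24 mo and 18 at 28 mo. Libraries of polyadenylated RNA were prepared in 3 batches, and 4 to 7 mice of each age fell into each batch.

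BMP ligands are secreted proteins that bind pairs of serine/threonine kinase receptors on the cell surface, which phosphorylate SMAD proteins that enter the nucleus and switch on target genes. Antagonists are secreted into the same extracellular space and bind the ligands before they reach a receptor. In the intestine, BMP signalling is high toward the luminal surface and promotes the maturation of epithelial cells, while stromal and muscle cells beneath the crypts release antagonists that keep the signal low around the stem cells.

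All 9 genes code for proteins (GRCm38). Of the ligands, Bmp2 (ENSMUSG00000027358) is at chr2:133552159-133562885 on the forward strand, Bmp3 (ENSMUSG00000029335) at chr5:98854415-98884396 on the forward strand, Bmp4 (ENSMUSG00000021835) at chr14:46383520-46390669 on the reverse strand, Bmp5 (ENSMUSG00000032179) at chr9:75775364-75900310 on the forward strand and Bmp7 (ENSMUSG00000008999) at chr2:172868012-172940321 on the reverse strand. Of the antagonists, Grem1 (ENSMUSG00000074934) is at chr2:113746164-113758646 on the reverse strand, Chrd (ENSMUSG00000006958) at chr16:20733127-20742384 on the forward strand and Nog (ENSMUSG00000048616) at chr11:89300638-89302332 on the reverse strand. Id1 (ENSMUSG00000042745) is at chr2:152736251-152737410 on the forward strand. No exon of a member overlaps an exon of another gene on its own strand, and on the opposite strand Bmp4 overlaps Gm15217, Bmp5 overlaps Gm26903 and Chrd overlaps Thpo, which a stranded count keeps apart.

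The series was collected beside a study of DNA methylation, so the CpG sites of the promoters are of interest. RefSeq promoter sequences (GRCm38.p6) were matched for 4 of the 9 members, and the 250 bases before the start of 3 of them are printed 5′ to 3′ on the strand of the gene because they span the range from CpG-rich to CpG-poor. Capitals mark each CG, the bases at which methylation is read. The first is the promoter of the antagonist Grem1 (chr2:113758649-113758898, reverse strand), the next that of the antagonist Chrd (chr16:20732877-20733126, forward strand) and the last that of the ligand Bmp5 (chr9:75775115-75775364, forward strand).
Grem1: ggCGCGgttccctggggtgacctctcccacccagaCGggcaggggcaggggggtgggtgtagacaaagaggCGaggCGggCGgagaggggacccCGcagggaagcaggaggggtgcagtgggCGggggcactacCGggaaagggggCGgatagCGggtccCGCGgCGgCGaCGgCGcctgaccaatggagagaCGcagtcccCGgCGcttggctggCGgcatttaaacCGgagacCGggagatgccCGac
Chrd: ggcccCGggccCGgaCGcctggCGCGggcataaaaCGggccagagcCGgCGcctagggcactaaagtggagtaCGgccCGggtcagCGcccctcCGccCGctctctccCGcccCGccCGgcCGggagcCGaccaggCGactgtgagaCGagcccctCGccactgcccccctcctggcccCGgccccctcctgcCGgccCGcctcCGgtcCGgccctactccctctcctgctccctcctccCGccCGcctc
Bmp5: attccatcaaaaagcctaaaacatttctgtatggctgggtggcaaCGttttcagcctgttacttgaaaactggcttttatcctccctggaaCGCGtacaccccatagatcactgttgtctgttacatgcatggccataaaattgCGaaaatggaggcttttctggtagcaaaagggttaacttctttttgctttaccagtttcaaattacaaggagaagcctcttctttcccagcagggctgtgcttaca

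The promoter of Grem1 held 24 CG and that of Chrd 28, more than 88.02% and 92.4% of the 32851 mouse promoters of the same length, whose median was 6. The promoter of Bmp5 held 4 CG, and that of Bmp4 (chr14:46390670-46390919, reverse strand) held 11. The GC content was 72.0% for Grem1, 78.0% for Chrd, 63.2% for Bmp4 and 42.8% for Bmp5, against a median of 52.4% over all promoters. The letters GGCGCC, which read the same on both strands, occurred once each in Grem1 and Chrd and not in Bmp4 or Bmp5, and 9.59% of all promoters held them. The letters CCGG, the palindromic cut site of the enzyme used in reduced representation bisulfite sequencing, which can share CC or GG at its ends with GGCGCC, occurred 10 times in Chrd, 4 times in Grem1, 3 times in Bmp4 and not in Bmp5, and 47.1% of all promoters held them. The letters TATAAA, searched on both strands and unable to overlap the other motifs, were not found in these 4 windows and were in 12.4% of all promoters. Methylation at these sites was not analysed here.

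The counted read pairs of a mouse ranged from 23026370 to 75838290 (median 35495123), and all 9 members were among the 18325 genes that passed the filter on low counts. Epithelial, smooth muscle and stromal markers were present in every mouse. The distal position genes Hoxb13 and Hoxa13, which are known from the distal end of the gut, were also counted in every mouse, at 2.25 to 38.4 CPM (counts per 1000000 of the normalised library size) for Hoxb13 and 14.6 to 37.9 CPM for Hoxa13, while Hoxd12 had a median of 0.0285 CPM. The position along the colon may differ between mice and was not tested. One 15 mo mouse, replicate 16, had a summed epithelial marker level of 6253 CPM, where the medians of the youngest and oldest groups were 10350 and 9706 CPM.

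Levels of different members were compared in TPM (transcripts per 1000000), which divide by transcript length. Id1 stood first with a mean of 358 ± 54.9 TPM (SD, n = 83). Bmp4 (39.3 ± 5.91 TPM), Bmp3 (39.0 ± 9.06 TPM) and Grem1 (34.2 ± 9.32 TPM) followed, then Bmp5 (23.7 ± 3.37 TPM) and Bmp2 (22.8 ± 3.22 TPM). Bmp7 was at 10.1 ± 1.32 TPM, and the antagonists Nog and Chrd were lowest at 2.48 ± 0.618 and 2.03 ± 0.466 TPM. Id1 was above Bmp4, Bmp2 above Bmp7 and Bmp7 above Nog in all 83 mice, so these steps of the order exceeded the spread between mice. The neighbours Bmp4 and Bmp3 did not separate, with Bmp4 higher in 42 of 83 mice, and neither did Bmp5 and Bmp2, with Bmp5 higher in 48. The order of Bmp4 and Bmp3 differed with age, because Bmp4 was the higher in 2 of 16 mice at 3 mo and in 15 of 18 at 28 mo. Likewise Bmp3 was above Grem1 in 15 of 16 mice at 3 mo but in 7 of 17 at 24 mo.

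**Figure D1:**
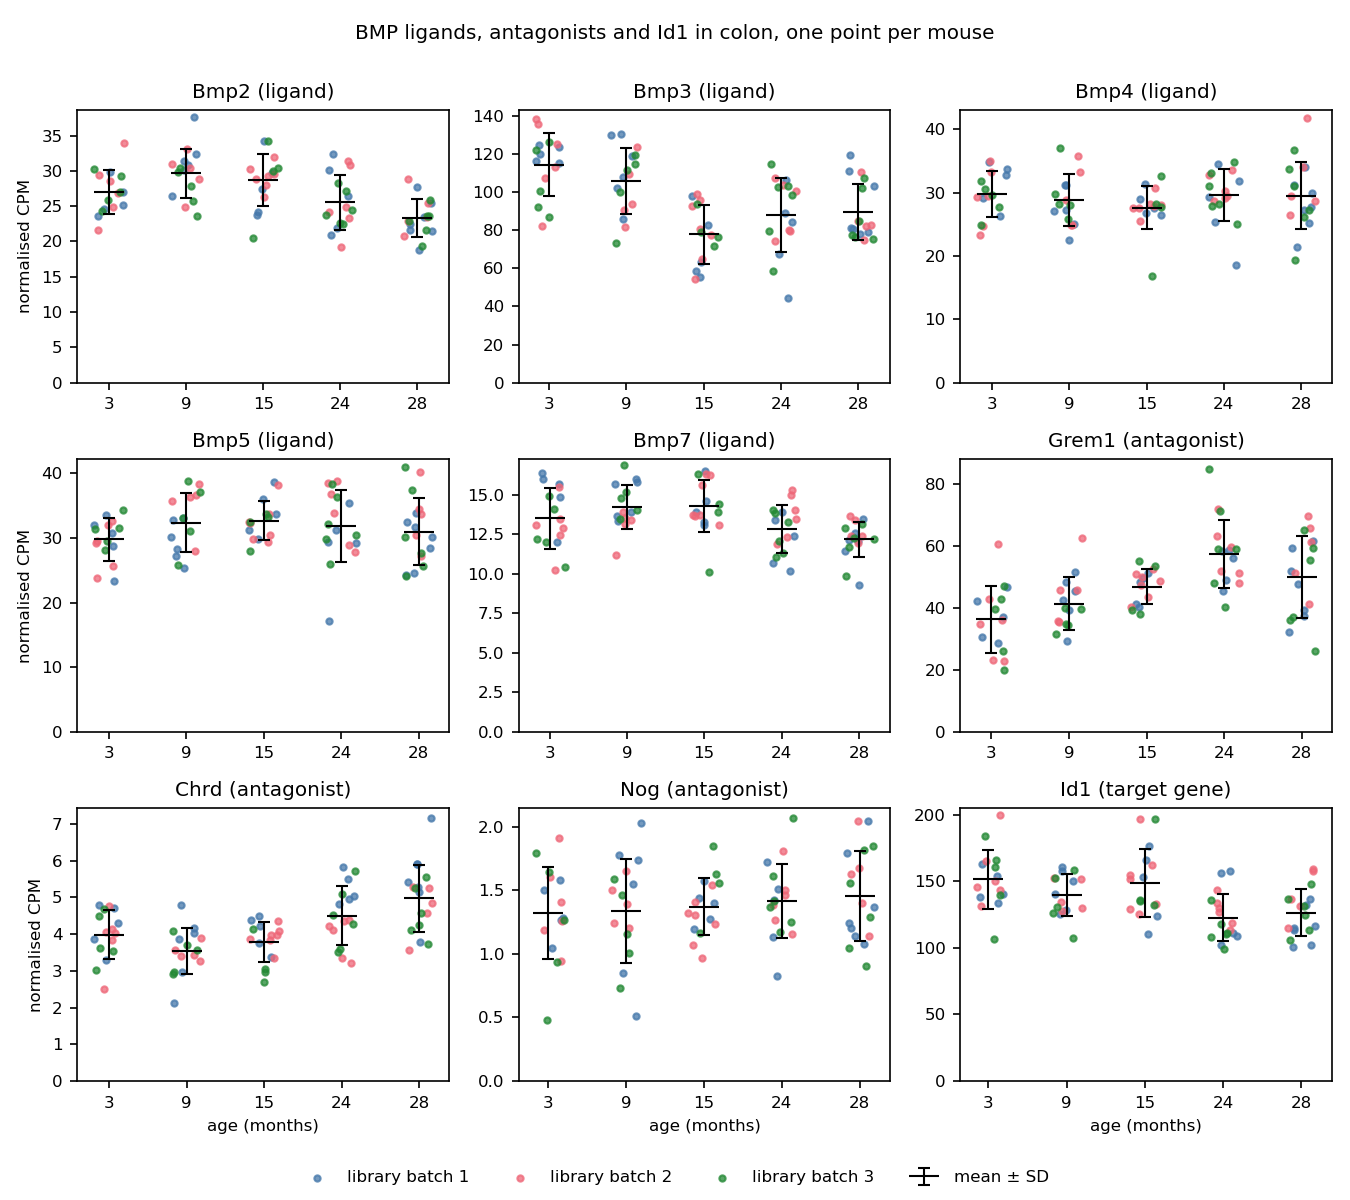
Normalised CPM (y axis, linear) of each of the 9 genes in each of the 83 mice by age in months (x axis), coloured by library batch, with the mean and SD of each age. Bmp3 had a median of 118 CPM at 3 mo and 78.3 CPM at 15 mo, and Grem1 a median of 36.5 CPM at 3 mo and 58.3 CPM at 24 mo, with overlapping ranges in both genes.

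The ligand Bmp3 fell and the antagonist Grem1 rose with age, Chrd rose late, and Bmp2, Bmp7 and Id1 fell, while Bmp4, Bmp5 and Nog passed no test in the fit of age and batch. In a test of any difference over the 5 ages, 6 of the 9 members passed an adjusted p-value below 0.1, the threshold of the study, in the quasi-likelihood F-test of edgeR, adjusted over all tested genes by the method of Benjamini and Hochberg. Of all tested genes 54.9% passed it, so a count of 6 in 9 is close to that of the whole table. The colon was measured as bulk tissue, in which fewer cells of a type and less RNA per cell cannot be told apart. All comparisons between ages draw on the same 5 groups of mice and are not independent of each other.

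Bmp3 is an unusual ligand that is known to oppose other BMPs through activin receptors. Its CPM, given as lowest, median and highest mouse, were 82.4, 118 and 138 at 3 mo, 73.4, 109 and 130.3 at 9 mo, 54.2, 78.3 and 99.2 at 15 mo, 44.4, 88.9 and 114.5 at 24 mo and 74.95, 82.4 and 119 at 28 mo. The level was high in the youngest groups and lowest at 15 mo, and the ranges of all ages overlapped. Between 9 and 15 mo it fell by 0.45 on the log2 scale (SE 0.095, adjusted p = 0.00757), and none of the 16 mice at 15 mo was above the 9 mo median. It was the only member called between these ages, at which 0.431% of all tested genes were called. Against 3 mo the difference was -0.56 ± 0.094 (log2, SE) at 15 mo (adjusted p = 1.13e-05), where 16 of 16 mice were below the 3 mo median and 10 below every 3 mo mouse. The share of all genes called between 3 and 15 mo was 7.75%, and 2 of the 9 members were called. Within the 3 library batches the difference between 9 and 15 mo was -0.67, -0.32 and -0.36 on the log2 scale. Bmp3 was then higher at 28 than at 15 mo by 0.20 (SE 0.092, adjusted p = 0.0751), and its departure from a straight line was called (adjusted p = 0.00396). With smooth muscle and epithelial marker scores as covariates, this rise from 15 to 28 mo was no longer called (0.18, adjusted p = 0.1145), whereas the fall from 9 to 15 mo was (-0.45, adjusted p = 0.00502). The rise was also lost without any of 5 single mice, namely 15 mo replicates 1, 13 and 15 and 28 mo replicates 8 and 13 (adjusted p up to 0.1255).

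Bmp2 is a ligand made by differentiated epithelial cells and by stromal cells. Its CPM (lowest, median and highest) were 21.6, 26.9 and 34.0 at 3 mo, 23.7, 30.3 and 37.7 at 9 mo, 20.4, 29.4 and 34.3 at 15 mo, 19.2, 24.4 and 32.4 at 24 mo and 18.7, 23.2 and 28.8 at 28 mo. The highest values were at 9 mo and the lowest at 28 mo, with overlapping ranges. Between 9 and 28 mo the level fell by 0.35 on the log2 scale (SE 0.062, adjusted p = 9.76e-06), where 18 of 18 mice were below the 9 mo median and 13 below every 9 mo mouse. Of the 5 surface colonocyte markers, related to Bmp2 within ages at r = 0.26, 3 were lower at 28 than at 9 mo. Their summed levels were 2232 to 3209 CPM at 9 mo (median 2440.0) and 1916 to 2603 CPM at 28 mo (median 2268). Of the 5 markers of PDGFRA-high stromal cells, the list nearest to Bmp2 (r = 0.42), 2 were higher and 2 lower. The part of either list in the fall of Bmp2 was not tested. Against 3 mo the fall by 28 mo was 0.21 (log2 fold change -0.21, SE 0.063, adjusted p = 0.00439), with 16 of 18 mice at 28 mo below the 3 mo median and values of -0.18, -0.18 and -0.26 in the batches, and with smooth muscle and epithelial scores in the fit it was -0.17 (adjusted p = 0.0297). Its departure from a straight line was also called (adjusted p = 0.0271). Its step between 15 and 24 mo was small (-0.16, SE 0.063, adjusted p = 0.0979) and was not called in 53 of the 83 fits that left out 1 mouse.

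Bmp7, a ligand of the same family as Bmp5, varied little between mice. Its CPM (lowest, median and highest) were 10.2, 13.3 and 16.4 at 3 mo, 11.2, 13.9 and 16.9 at 9 mo, 10.1, 13.9 and 16.5 at 15 mo, 10.2, 13.3 and 15.3 at 24 mo and 9.32, 12.3 and 13.6 at 28 mo. The oldest group was the lowest, and all ranges overlapped. At 28 mo 18 of 18 mice were below the medians of both 9 and 15 mo, with log2 fold changes of -0.23 (SE 0.058, adjusted p = 0.00154) and -0.23 (SE 0.059, adjusted p = 0.00144). Of the 5 markers of PDGFRA-high stromal cells, the list nearest to Bmp7 within ages (r = 0.56), 2 were higher and 2 lower in each comparison. Their part in the fall of Bmp7 was not tested. Against 3 mo the difference of Bmp7 at 28 mo was smaller (-0.15, SE 0.058, adjusted p = 0.0315). Within the batches it was -0.33, -0.012 and -0.079, and with the smooth muscle and epithelial scores as covariates it was not called (-0.12, adjusted p = 0.116).

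Bmp4, a ligand of the stroma beneath the epithelium, and Bmp5 passed no comparison in the fit without marker scores. With smooth muscle and epithelial scores as covariates Bmp4 was called between 15 and 28 mo (adjusted p = 0.0958, and 0.0997 with distal position as well), and Bmp5 was not called in any comparison. Bmp4 had medians of 29.6, 28.1, 27.9, 29.5 and 29.1 CPM at 3, 9, 15, 24 and 28 mo, within a range from 16.9 to 41.8 CPM. Of the 4 macrophage markers, the list nearest to Bmp4 within ages (r = 0.69), 3 were higher at 28 than at 3 mo. The lowest Bmp4 was in replicate 16 of the 15 mo group, the mouse of low epithelial markers named above. Bmp5 had medians of 30.2, 33.0, 32.5, 31.2 and 30.3 CPM, within a range from 17.1 to 41.0 CPM. The intervals of the difference between 3 and 28 mo leave room for small changes, from -0.15 to 0.14 on the log2 scale for Bmp4 (adjusted p = 0.943) and from -0.076 to 0.20 for Bmp5 (adjusted p = 0.483).

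Grem1 (gremlin) is an antagonist that binds several BMP ligands and is known from the cells beneath the colonic crypts. Its CPM (lowest, median and highest) were 19.9, 36.5 and 60.65 at 3 mo, 29.3, 39.8 and 62.8 at 9 mo, 38.1, 48.6 and 55.1 at 15 mo, 40.3, 58.3 and 84.85 at 24 mo and 26.1, 51.8 and 69.6 at 28 mo. The medians stepped up to 24 mo, and all ranges overlapped. Against 3 mo it rose by 0.66 on the log2 scale at 24 mo (SE 0.11, adjusted p = 3.85e-06), where 17 of 17 mice were above the 3 mo median and 4 above every 3 mo mouse. At 28 mo it was higher by 0.46 (SE 0.11, adjusted p = 0.000440), with 15 of 18 mice above the 3 mo median. The 3 batches gave 0.55, 0.72 and 0.81 at 24 mo and 0.33, 0.71 and 0.40 at 28 mo. A straight line in age rose by 0.022 per month (log2, SE 0.0040, adjusted p = 3.20e-06), and no departure from it was called (adjusted p = 0.205). Across all tested genes 53.2% had a called straight line, and 6 of the 9 members did, Grem1 and Chrd upward and Bmp2, Bmp3, Bmp7 and Id1 downward.

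Smooth muscle markers moved with Grem1. Their summed level ranged from 828 to 5241 CPM at 3 mo (median 3559), from 3183 to 5338 at 24 mo (median 4403) and from 2544 to 4774 at 28 mo (median 3901), and 4 of the 6 markers were called higher at 24 than at 3 mo and 0 of the 6 at 28 mo. The 5 markers of CD81+ stromal cells of low PDGFRA, a population known to express Grem1, summed to 170.4 to 246.9 CPM at 3 mo (median 205.7), 204.5 to 386.7 at 24 mo (median 261.8) and 162.2 to 372.2 at 28 mo (median 271.5), with 2 of 5 called higher at 24 and 1 of 5 at 28 mo. Among other lists related to Grem1 within ages, 3 of 4 macrophage (r = 0.53) and 4 of 5 endothelial markers (r = 0.44) were higher at both ages. Of interstitial cell of Cajal markers (r = 0.58) 1 of 3 was higher at 24 mo and 0 at 28 mo. Of distal position (r = 0.59) and enteric neuron markers (r = 0.48) 0 were higher at either age, and 1 of each was lower at 28 mo. Apart from the fits named next, the part of these lists in the rise of Grem1 was not tested. With smooth muscle and epithelial scores in the fit, the rise of Grem1 at 24 mo was 0.43 (adjusted p = 0.000985) and that at 28 mo 0.31 (adjusted p = 0.00825), while its rise at 15 mo, 0.36 without them (SE 0.11, adjusted p = 0.0430), became 0.20 (adjusted p = 0.238). When a score of the distal position genes was added as well, a choice made after seeing the data, the values were 0.48, 0.40 and 0.23 at 24, 28 and 15 mo (adjusted p = 1.54e-05, 0.000100 and 0.0758).

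Chrd (chordin) binds BMP ligands and is cut by the protease Bmp1. Its CPM (lowest, median and highest) were 2.50, 4.05 and 4.79 at 3 mo, 2.12, 3.57 and 4.78 at 9 mo, 2.685, 3.92 and 4.49 at 15 mo, 3.21, 4.38 and 5.84 at 24 mo and 3.58, 5.19 and 7.17 at 28 mo. The highest medians were at 24 and 28 mo and the lowest at 9 mo, where 13 of 16 mice were below the 3 mo median (-0.17, adjusted p = 0.242, and 0.0550 with smooth muscle and epithelial scores), and all ranges overlapped. They rested on 74 to 322 read pairs per mouse. Between 9 and 28 mo Chrd rose by 0.48 on the log2 scale (SE 0.083, adjusted p = 3.83e-06), and 18 of 18 mice at 28 mo were above the 9 mo median. Against 3 mo the rise was 0.31 (SE 0.082, adjusted p = 0.00172), with 15 of 18 mice above the 3 mo median, 11 of them above every 3 mo mouse, and batch values of 0.38, 0.28 and 0.24. With smooth muscle and epithelial scores in the fit this rise was 0.26 (adjusted p = 0.00535). The difference between 3 and 24 mo was not called (0.18, SE 0.083, adjusted p = 0.1047, and 0.611 with the scores), but it was close to the threshold, and it was called by DESeq2 (adjusted p = 0.0826), with the size factors of DESeq2 (0.0976), with at least 10 counts in every mouse (0.0908) and in 50 of the 83 fits that left out 1 mouse. The course of Chrd was not straight either (departure, adjusted p = 0.0351). Of all tested genes 16.2% departed, and of the 9 members 3, namely Bmp2, Bmp3 and Chrd. The 3 markers of the mesothelium, which covers the outer wall of the colon, were all higher at 28 than at 3 mo, with a summed median of 2.55 CPM at 3 mo and 6.22 CPM at 28 mo. Of the 5 markers of CD81+ stromal cells of low PDGFRA, whose summed median was 205.7 CPM at 3 mo and 271.5 CPM at 28 mo, 1 was called higher, and of the 5 endothelial markers 4 were. Other lists related to Chrd within ages did not rise. Between 3 and 28 mo 0 of 6 smooth muscle markers (r = 0.53) were called. The same held for 0 of 3 markers of interstitial cells of Cajal (r = 0.49) and 0 of 4 of enteric glia (r = 0.43). Of 5 enteric neuron markers (r = 0.43) 1 was lower. Apart from smooth muscle, the part of these lists in the rise of Chrd was not tested.

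Nog (noggin), an antagonist that blocks the receptor-binding faces of the ligands, was low and variable. Its medians were 1.27, 1.43, 1.36, 1.415 and 1.38 CPM at 3, 9, 15, 24 and 28 mo, within a range from 0.483 to 2.06 CPM and on 18 to 138 read pairs per mouse. No comparison was called, with or without marker scores, and between 3 and 28 mo the interval ran from -0.11 to 0.40 on the log2 scale (adjusted p = 0.379). The median coefficient of variation within an age was 24.3% for Nog, 20.4% for Grem1 and 17.7% for Chrd, and from 11.7% for Bmp2 and Bmp7 to 16.5% for Bmp3 among the ligands. Grem1 varied most among mice at 3 mo (29.9%) and least at 15 mo (11.9%).

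Id1, inhibitor of DNA binding, is a helix-loop-helix protein without a DNA-binding region, and its gene is a direct target of the SMAD proteins of the BMP pathway, though other signals act on it too. Its CPM (lowest, median and highest) were 107, 148 and 199.6 at 3 mo, 108, 137.5 and 160.4 at 9 mo, 111, 144 and 197 at 15 mo, 99.5, 118 and 158 at 24 mo and 101, 128 and 159 at 28 mo. The groups overlapped, with the lower medians at 24 and 28 mo. Between 15 and 24 mo Id1 fell by 0.27 on the log2 scale (SE 0.070, adjusted p = 0.00888), with batch values of -0.20, -0.23 and -0.38. Against 3 mo it fell by 0.30 at 24 mo (SE 0.070, adjusted p = 0.000709), with 15 of 17 mice below the 3 mo median, and by 0.25 at 28 mo (SE 0.069, adjusted p = 0.00195), with 15 of 18 mice below it. Of the 6 epithelial markers 4 were lower at 28 than at 3 mo. With smooth muscle and epithelial scores in the fit, the differences of Id1 from 3 mo were -0.23 at 24 mo (adjusted p = 0.0160) and -0.17 at 28 mo (adjusted p = 0.0384). With the distal position score as well, the adjusted p-values were 0.0195 at 24 mo and 0.0991 at 28 mo, the latter just under the threshold.

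**Figure D2:**
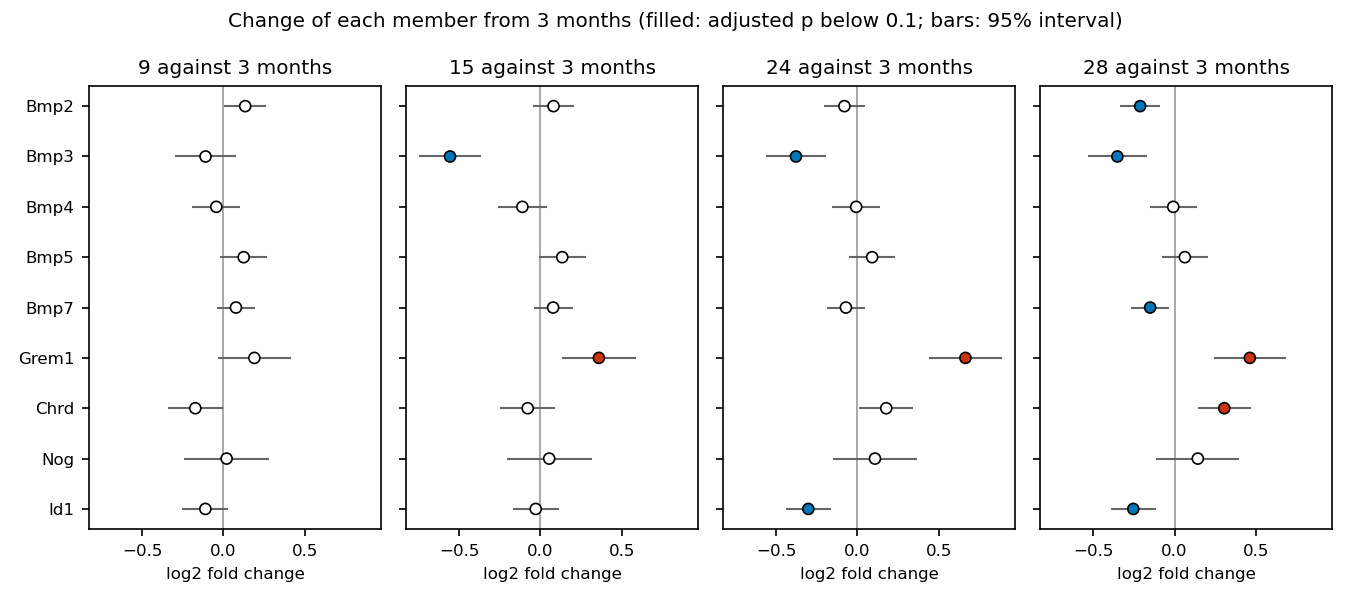
Log2 fold change against 3 mo (x axis) of each gene (y axis), in separate panels for 9, 15, 24 and 28 mo. Bars are 95% confidence intervals from edgeR, and points are filled where the adjusted p-value was below 0.1. Grem1 reached 0.66 at 24 mo and Bmp3 -0.56 at 15 mo, and every point at 9 mo is open.

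Between neighbouring ages the members differed at some steps and not at others. Between 3 and 9 mo edgeR's quasi-likelihood test called 0 of the 9 members, 2 had an unadjusted p-value below 0.05 and DESeq2 called 0, where 8.69% of all tested genes were called. Between 15 and 24 mo 4 of the 9 were called, where 13.5% of all tested genes were, and DESeq2 called 5, with Bmp7 added (adjusted p = 0.0887, and 0.1003 by edgeR). Chrd (0.26, SE 0.084, adjusted p = 0.0447) and Grem1 (0.30, SE 0.11, adjusted p = 0.0767) were higher at 24 mo and Id1 and Bmp2 lower. The rise of Chrd at this step was 0.37 and 0.46 in batches 1 and 3 but -0.00057 in batch 2, and without 24 mo replicate 1 or 11 Grem1 was not called (adjusted p up to 0.134) and the count of members was 2. Between 24 and 28 mo edgeR and DESeq2 each called 0 members and 1 had an unadjusted p-value below 0.05, where edgeR called 11.7% of all tested genes.

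Over the longer intervals, 3 of the 9 members were called between 3 and 24 mo (34.5% of all tested genes were, and DESeq2 called 4 members, with Chrd added), 6 between 9 and 24 mo (15.5%), 5 between 9 and 28 mo (40.0%) and 5 between 15 and 28 mo (42.4%). Between 9 and 24 mo Grem1 (0.47, adjusted p = 0.00262) and Chrd (0.35, adjusted p = 0.00287) were higher, and Bmp3 (-0.27, adjusted p = 0.0486), Bmp2 (-0.21, adjusted p = 0.0187), Id1 (-0.19, adjusted p = 0.0649) and Bmp7 (-0.15, adjusted p = 0.0952) were lower. Of these the calls of Bmp7 and Id1 were lost with smooth muscle and epithelial scores in the fit (adjusted p = 0.126 and 0.1085), and in batch 2 alone the value of Bmp7 was 0.065, opposite to the pooled one. Leaving out 1 mouse ended the call of Id1 for 9 mo replicate 16 or 24 mo replicate 15 (adjusted p = 0.1037 and 0.1014). It ended that of Bmp7 for 9 mo replicates 3, 6, 7 and 11 and 24 mo replicates 2, 4, 5, 8 and 16 (adjusted p up to 0.158). Between 3 and 28 mo 6 of the 9 were called, where 49.4% of all tested genes were. The 2 higher members were both antagonists, of 3, and the 4 lower ones were Id1 and 3 of the 5 ligands, where 23.5% of all tested genes were called higher and 25.9% lower. The median log2 fold change in this comparison was 0.31 over the 3 antagonists and -0.15 over the 5 ligands, beside -0.0087 over all tested genes. Over the 7 other ligands of the pathway, described below, the median was 0.32, with 3 called higher and 0 lower. Over the 12 other antagonists and modulators tested it was 0.14, with 3 higher and 2 lower. The fall of the member ligands was thus not shared by the other ligands.

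The antagonists and ligands were also summed in TPM in each mouse, as a description without a test. The antagonists made up 17.6 ± 3.98% of the antagonist and ligand TPM at 3 mo (SD, n = 16; range 11.97 to 25.8%), 19.4 ± 3.30% at 9 mo, 23.1 ± 2.48% at 15 mo, 26.2 ± 3.32% at 24 mo (n = 17; range 20.5 to 32.7%) and 24.1 ± 3.77% at 28 mo (n = 18; range 16.8 to 29.9%). The share was thus higher at 15 mo and later than at 3 mo on average, with overlapping ranges. Grem1 alone gave 85.7 to 89.7% of the antagonist TPM at the 5 ages, and the mean antagonist sum was 31.2 TPM at 3 mo and 47.0 TPM at 24 mo. The mean ligand sum was 143.8 TPM at 3 mo and 125.8 TPM at 15 mo, but without Bmp3 it lay between 94.4 and 98.01 TPM at every age. Bmp3 gave 32.8% of the ligand TPM at 3 mo and 24.7% at 15 mo. With Bmp3 left out of the ligands the antagonist share was 24.0, 25.6, 28.5, 32.8 and 30.7% at 3, 9, 15, 24 and 28 mo. These are shares of RNA, and say nothing of the amounts of secreted protein.

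**Figure D3:**
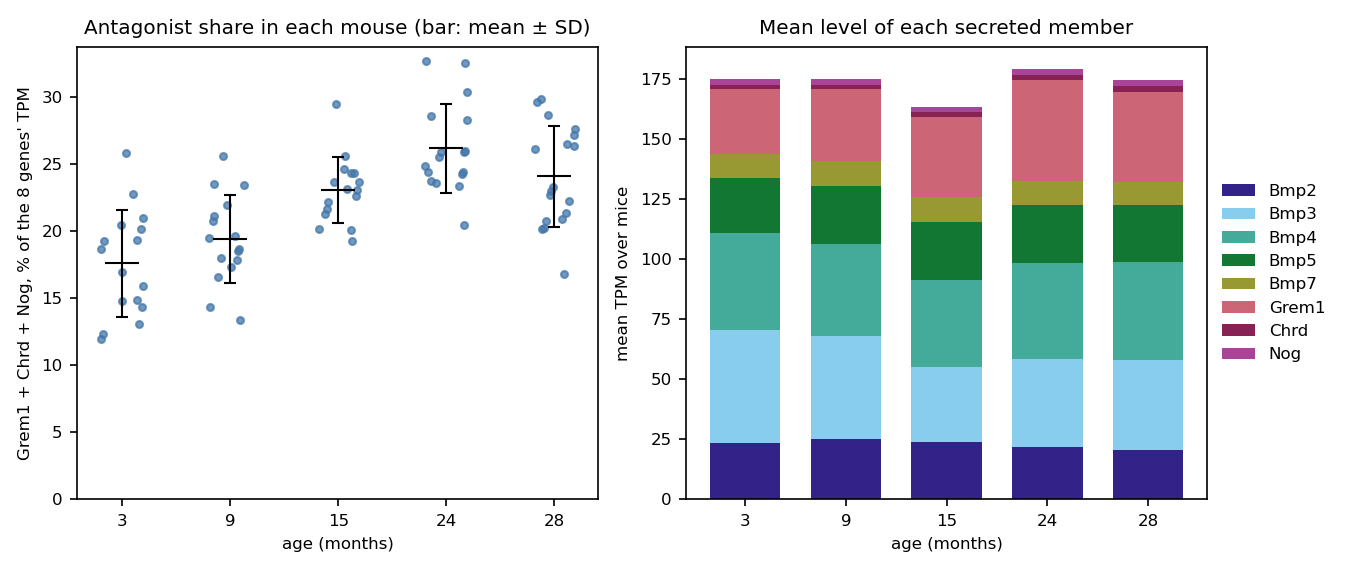
Share of Grem1, Chrd and Nog in the summed TPM of these antagonists and the 5 ligands in each mouse by age (percent, with mean and SD), and the mean TPM of each gene stacked by age. The mean share was 17.6% at 3 mo and 26.2% at 24 mo.

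Mice of the same age and batch differed in the members together. Pearson correlations were computed over the 83 mice on log2 CPM after removing the means of age and batch, for all 36 pairs of members, with permutation tests of 100000 resamples and Benjamini-Hochberg adjustment over the pairs. Of the 36 pairs 19 were called, 15 positive and 4 negative, and 12 were by Spearman's rho. The share of called pairs among other genes was not computed, so this count does not set the members apart. The permutations give no p-value below 1e-05.

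The stromal ligands and the antagonists formed most of the positive pairs. Bmp4 and Bmp7 had r = 0.56 (permutation p = 1e-05, adjusted p = 0.00036) and rho = 0.49 (adjusted p = 0.00036), r = 0.46 without the 2 mice farthest from the median of Bmp4, and r = 0.73, 0.50 and 0.45 within the batches. Bmp4 and Bmp5 had r = 0.56 (permutation p = 4e-05, adjusted p = 0.00048) and rho = 0.51 (adjusted p = 0.0006), r = 0.52 without the 2 farthest mice, and r = 0.74, 0.55 and 0.38 within the batches. Ligand and antagonist also went together, as Bmp4 and Grem1 had r = 0.50 (permutation p = 2e-05, adjusted p = 0.00036) and rho = 0.55 (adjusted p = 0.00036), r = 0.585 without the 2 farthest mice, and r = 0.43, 0.65 and 0.47 within the batches.

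Among the antagonists, Grem1 and Nog had r = 0.49 (permutation p = 1e-04, adjusted p = 0.0006) and rho = 0.47 (adjusted p = 0.00139), r = 0.45 without the 2 farthest mice, and r = 0.48, 0.37 and 0.61 within the batches. Grem1 and Chrd had r = 0.46 (permutation p = 9e-05, adjusted p = 0.0006) and rho = 0.42 (adjusted p = 0.00139), r = 0.42 without the 2 farthest mice, and r = 0.29, 0.44 and 0.63 within the batches. Bmp3 ran opposite to some of the others. With Chrd it had r = -0.32 (permutation p = 0.00258, adjusted p = 0.00929) and rho = -0.28 (adjusted p = 0.0304), r = -0.29 without the 2 farthest mice, and r = -0.41, -0.22 and -0.30 within the batches. Id1 went with Bmp2 at r = 0.31 (permutation p = 0.0113, adjusted p = 0.0340, and 0.33, 0.43 and 0.18 within the batches) and at rho = 0.28 (adjusted p = 0.0637).

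**Figure D4:**
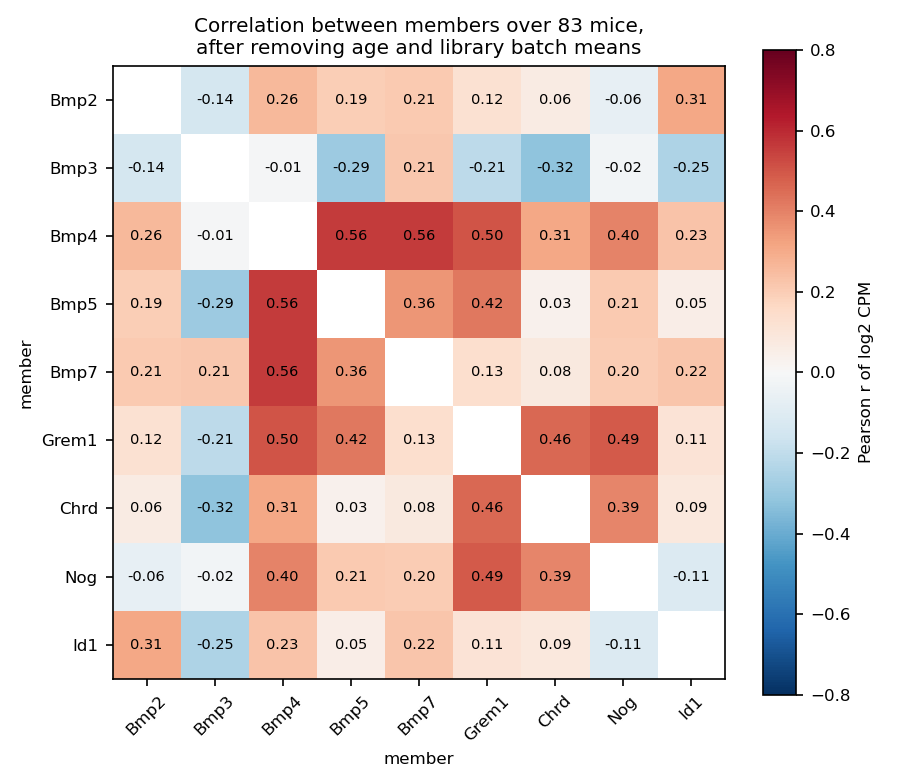
Pearson r between the log2 CPM of each pair of the 9 genes over 83 mice, after removing age and batch means. Bmp4 and Bmp7 had r = 0.56 and Bmp3 and Chrd r = -0.32.

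The members were set beside 16 lists of marker genes of the cell types and regions of the colon wall in the same way, as 144 relations added after seeing the data, of which 69 were called by Pearson's r. The relations of Grem1, Nog and Chrd named next had a permutation p of 1e-05 for r (adjusted p = 6.86e-05) and adjusted p-values of at most 0.00066 for rho. Grem1 followed the markers of CD81+ stromal cells (r = 0.62, rho = 0.62), of distal position (r = 0.59, rho = 0.56, r = 0.54 without the 2 farthest mice, and r = 0.71, 0.35 and 0.69 within the batches) and of smooth muscle (r = 0.59, rho = 0.58, r = 0.55 without the 2 farthest mice, and r = 0.58, 0.54 and 0.63 within the batches). Nog followed enteric neurons (r = 0.76, rho = 0.73, and r = 0.67 without the 2 farthest mice), enteric glia (r = 0.74, rho = 0.69) and smooth muscle (r = 0.73, rho = 0.66), which lie in the muscle layer. Chrd followed smooth muscle (r = 0.53, rho = 0.43) and CD81+ stromal cells (r = 0.53, rho = 0.46).

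The ligands and the antagonists shared some of these lists. Bmp5, Bmp7, Bmp4 and Bmp2 followed the PDGFRA-high stromal cells that lie under the epithelium (r = 0.57, 0.56, 0.51 and 0.42, rho = 0.57, 0.53, 0.51 and 0.40, with adjusted p-values of at most 0.00224). Bmp5 also followed macrophages (r = 0.55), and Bmp4 followed endothelium (r = 0.61) and macrophages (r = 0.69, rho = 0.69, both adjusted p-values at most 9e-05). Bmp4 was also related to lists named for the antagonists, with r = 0.52 for CD81+ stromal cells, 0.49 for enteric neurons, 0.43 for enteric glia and 0.41 for smooth muscle. In turn Grem1 was related to macrophages (r = 0.53) and, more weakly, to PDGFRA-high cells (r = 0.32). Bmp3 was only weakly related to any of the 16 lists, with r = 0.31 for the crypt base (rho = 0.32, adjusted p = 0.01725 and 0.0250) and r = -0.29 for surface colonocytes (rho = -0.30, adjusted p = 0.0538 and 0.0333). Id1 followed the epithelium (r = 0.46, rho = 0.58, and r = 0.63 without the 2 farthest mice). How much of the differences with age came from such cells was not tested, apart from the fits with smooth muscle, epithelial and distal position scores.

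**Figure D5:**
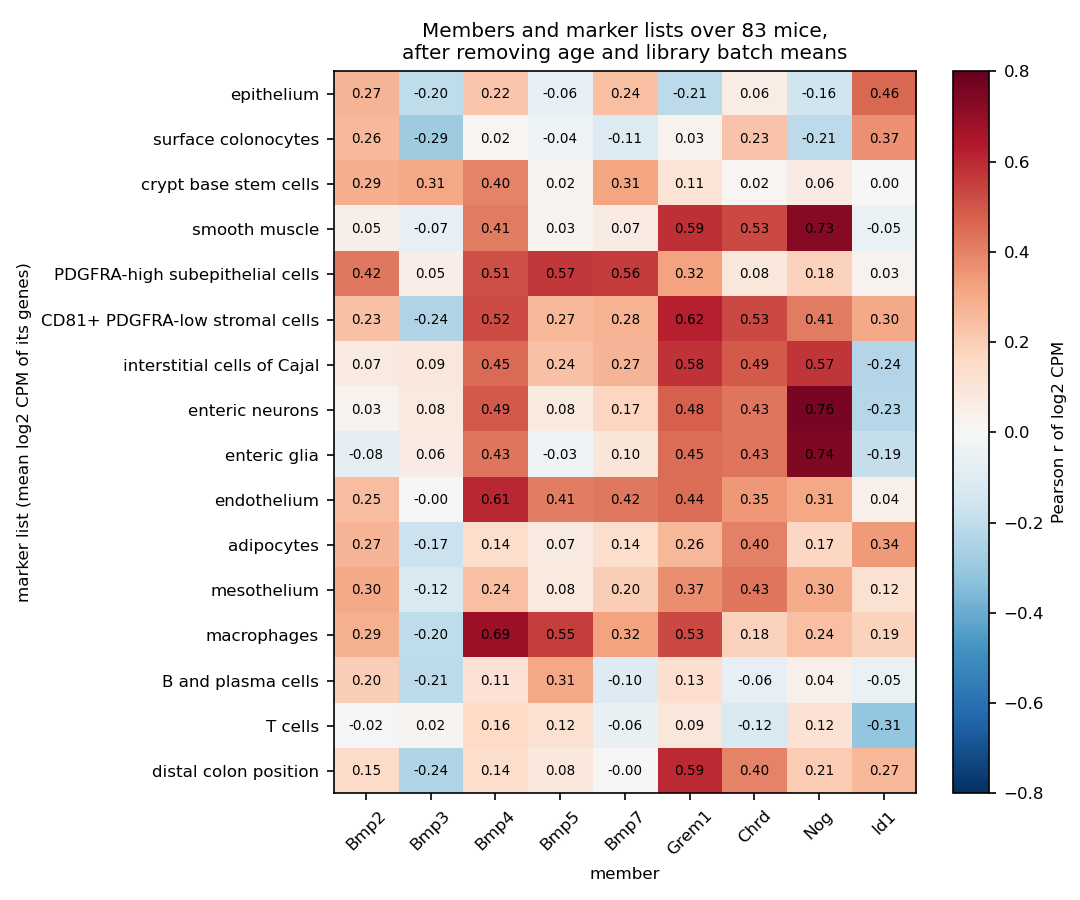
Pearson r between the log2 CPM of each of the 9 genes (columns) and the score of each of 16 marker lists (rows) over 83 mice, after removing age and batch means. Nog with enteric neurons had r = 0.76 and Bmp3 with the crypt base r = 0.31.

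For each member, the 3 genes of most similar pattern were taken from the 14962 tested genes with a mean of at least 1 CPM, by Pearson r on the same residuals over 83 mice, as a description. Grem1 was closest to Fgf10 (r = 0.88), Chrdl1 and Rdx (both 0.76), and Bmp4 to Bgn (0.85), Mmp2 (0.83) and Col1a2 (0.81). Bmp3 was closest to Rgs17 (0.69), Farp2 (0.69) and Peli2 (0.68), Bmp2 to Plau (0.54), Nrg1 (0.54) and Tle1 (0.52), Bmp5 to Zeb2 (0.72), Dab2 (0.70) and Cx3cr1 (0.69) and Bmp7 to Sema3f (0.64), Nt5dc2 (0.63) and Mmp2 (0.625). Chrd was closest to Tnxb (0.70), Mamdc2 (0.68) and Fgfr1 (0.68), Nog to Nsg1, Cpe and Fhod3 (0.79 each) and Id1 to Fos (0.80), Ppa1 (0.72) and Phlda1 (0.72).

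Other genes of the pathway, listed by role, were read from the same fit between 3 and 28 mo, in which 49.4% of all tested genes were called (23.5% higher and 25.9% lower), so that the counts called in each list are near or below the share of the whole table. Of 7 other ligands 3 were higher and 0 lower (median log2 fold change 0.32), namely Gdf6 (0.93, SE 0.21, adjusted p = 0.000165), Gdf10 (0.75, SE 0.22, adjusted p = 0.00417) and Bmp6 (0.32, SE 0.085, adjusted p = 0.00144). Of 11 receptors and co-receptors 2 were higher and 1 lower (median -0.0094), with Eng and Acvrl1, both known from endothelial cells, higher by 0.24 and 0.22 and the receptor Acvr1 at -0.12 (adjusted p = 0.0348). The endothelial markers moved alongside, with 4 of 5 higher, and their part in Eng and Acvrl1 was not tested. Of 8 SMAD proteins and SMAD ubiquitin ligases 3 were higher and 1 lower (median 0.082), namely Smad9 (0.45, adjusted p = 2.21e-05), Smurf1, which tags SMAD proteins for breakdown (0.24, adjusted p = 4.00e-06), Smad5 (0.20) and the inhibitory Smad6 (-0.14, adjusted p = 0.0377).

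Of 13 other antagonists and extracellular modulators, 12 of them tested, 3 were higher and 2 lower (median 0.14). They included Chrdl1, a relative of Chrd (0.48, SE 0.093, adjusted p = 1.63e-05), Nbl1, a relative of Grem1 (0.23, adjusted p = 0.00741), the protease Bmp1 (0.18, adjusted p = 0.00964) and Fst, which binds activins and BMPs (-0.32, SE 0.15, adjusted p = 0.0865). Of 7 other target genes, 6 of them tested, 3 were higher and 0 lower (median 0.16), beside the 49.4% called among all tested genes. These were Msx1, a homeobox gene (2.31, SE 0.13, adjusted p = 2.01e-26), Atoh8 (0.29, adjusted p = 0.000416) and Id2 (0.16, adjusted p = 0.00557), whereas Id3 was at -0.091 and was not called.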

How the data were processed

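RNA of the colon of 83 male mice was measured, by the methods of its proximal section. The table deposited by the authors holds raw counts, in whole read pairs, for each gene in each mouse. Per the submitters' processing notes and the methods, reads were trimmed with cutadapt 2.8, aligned to GRCm38.p6 with HISAT2 2.1.0 and counted by strand with featureCounts (Subread 2.0.1), with SAMtools 1.9 also named. Uniquely mapped pairs were kept, so reads shared by near-identical genes are lost. Each library is 1 mouse, and ages and batches were taken from the labels. In 649 pairs of mice of the same age the chi-square of the counts over its degrees of freedom was at least 11.7 (median 38.4), so no library was counted once for another.

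The filterByExpr function of edgeR, with age as the group, left 18325 genes, which were normalised with TMM. One model with age group and batch was fitted over all mice with edgeR 4.0.16 (R 4.3.3), and the 10 pairs of ages, any difference over the 5 ages, a straight line in age and departure from it were tested with the quasi-likelihood F-test, with Benjamini-Hochberg adjustment over all tested genes and a threshold of 0.1 as in the study. The fit was tested on simulated data. CPM used TMM library sizes, log2 CPM a prior count of 2, and TPM merged exon lengths from a GRCm38 annotation (GENCODE M21), which may differ from the one used for counting. Marker scores are means of log2 CPM over a list. Correlations used permutation tests with 100000 resamples, two-sided. Descriptions and figures used Python 3.11.15 with scipy 1.17.1, numpy 2.4.6, matplotlib 3.10.9 and pandas 2.3.3.

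All 9 members are named. Of each pathway list at most 4 genes called between 3 and 28 months are named, largest change first, and for each member the 3 genes with the highest r. The members and lists were chosen with earlier results of these data known. Alternatives were DESeq2 1.42.0, its size factors, no filter, a stricter threshold, the replicate number as a block, no term for batch, marker scores as covariates, a fit of only the ages compared, and leaving out each mouse in turn.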

Additional observations from a re-analysis of the deposited data

How the results depend on the processing

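With smooth muscle and epithelium scores as covariates, the count of called members was 1 in place of 0 between 3 and 9 months and between 24 and 28 months (Chrd, adjusted p = 0.0550 and 0.0738), 1 in place of 2 between 3 and 15 months, and 5 in place of 3 for departure from a straight line, where Bmp7 and Id1 were added. With the distal position score as well, added after seeing the data, the counts were 1 between 3 and 9 months, 1 between 24 and 28 months and 5 for the departure. Single calls gained between 15 and 28 months were Bmp4 with the first scores (adjusted p = 0.0958) and Bmp4 and Grem1 with all scores (adjusted p = 0.0997 and 0.0741). Between 15 and 24 months the count was 2 in place of 4 with an adjusted p-value below 0.05 and 2 without the filter, and 2 to 5 when each mouse was left out in turn (2 without 24-month replicate 1 or 11). The correlated pairs were 12 by Spearman in place of 19. Within batch 2 alone Chrd between 15 and 24 months was at -0.00057 and Bmp7 between 9 and 24 months at 0.065. With the replicate block, Bmp2 between 15 and 24 months lost its call (adjusted p = 0.126), and no other call changed. The replicate numbers share only a number: same-numbered mice of different ages correlated with a median r of 0.011 over 161 pairs. Under the settings that left out no mouse, 120 counts stayed within 1.5 times the main one, 6 rose and 4 fell, and 321 fold changes of called members kept their call and 15 lost it, with the same direction. With a mouse left out 2585 kept it and 71 lost it, 53 of them Bmp2 between 15 and 24 months. The straight line was not run with mice left out. No outlier test was made, and all 17 mice at 24 months were kept. The study left out a 24-month mouse as an outlier in a principal component analysis of its methylation data. The lowest count was that of Nog, with 18 read pairs in a mouse.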
